A study of Mus musculus with 8 samples.

Results

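The 31 genes described here encode the standard subunits of the proteasome: 7 alpha ring genes (Psma1 to Psma7), 7 beta ring genes (Psmb1 to Psmb7), 6 ATPase genes (Psmc1 to Psmc6) and 11 non-ATPase genes of the regulatory particle (Psmd1 to Psmd4, Psmd6 to Psmd8 and Psmd11 to Psmd14). They were taken by gene symbol from the 18193 genes that had a probe set of their own on the arrays. All 31 had such a probe set, and all 31 were among the 11525 genes bright enough to be tested. The cultures were oligodendrocyte precursor cells of the ICR strain, prepared from the hemispheres of embryos at 15 days, which were dissociated, kept as mixed cultures with 10% serum for 5 days and then passaged without serum. For the last 48 hr they were held at 31.5 °C or at 37 °C, and each temperature has 4 samples, numbered 1 to 4 in the labels. Whole-genome expression arrays read their total RNA, and the question was which transcripts differ between the hypothermic and the normothermic temperature. RNA came from 3 mice per group according to the labels, against 4 arrays, and nothing states that the arrays are separate cultures. All p-values therefore measure the spread between these samples, which may be technical.

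The proteasome is the barrel-shaped protease that breaks down proteins tagged with ubiquitin in the cytosol and nucleus. The alpha rings form the gated ends of the barrel and the beta rings its inner chamber, where some of the beta subunits cut the peptide chain. A regulatory particle sits on the end: its ring of ATPases unfolds the substrate and pushes it inward, while its non-ATPase subunits bind the ubiquitin tag and remove it. The subunits are needed in fixed proportion, and cells are known to raise their genes together when proteasome activity falls short, through the transcription factor encoded by Nfe2l1. In the oligodendrocyte lineage, protein turnover accompanies the change from dividing precursor to myelinating cell.

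The promoters of these genes are shown for 4 subunits, because each has a motif of interest within 100 bases of the start and their genes differed in how they moved. Each line gives the 100 bases before the RefSeq transcript start (GRCm38.p6), 5′ to 3′ in the direction of the gene. Capitals mark the antioxidant response element core in Psmb5 and Psmb6 and the CCAAT box in Psmb3 and Psma1. Psmb5 lies at chr14:54617996-54618095 on the minus strand, Psmb6 at chr11:70525257-70525356 on the plus strand, Psmb3 at chr11:97703334-97703433 on the plus strand and Psma1 at chr7:114276117-114276216 on the minus strand.
Psmb5: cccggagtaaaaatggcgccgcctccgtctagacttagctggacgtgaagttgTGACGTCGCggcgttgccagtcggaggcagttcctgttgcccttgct
Psmb6: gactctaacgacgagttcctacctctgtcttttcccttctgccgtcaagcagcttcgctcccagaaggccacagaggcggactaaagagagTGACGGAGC
Psmb3: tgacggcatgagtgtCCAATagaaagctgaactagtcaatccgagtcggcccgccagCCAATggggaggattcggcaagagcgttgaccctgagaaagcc
Psma1: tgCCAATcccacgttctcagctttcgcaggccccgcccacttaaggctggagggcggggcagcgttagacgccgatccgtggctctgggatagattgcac
Each of 3 motifs was searched on both strands from 250 bases before to 50 after each start, and 25 of the 31 genes had an entry, with 27 starts. The antioxidant response element core TGACNNNGC, the binding motif of the factor encoded by Nfe2l2, was in 4 of the 27 starts (14.8%), against 12.4% of all 32851 starts. Those 4 genes were Psmb5, Psmb6, Psmc6 and Psmd12. Of these Psmd12 rose in the main fit, and Psmb6 and Psmc6 rose as well with the replicate number as a block in limma. The CCAAT box, CCAAT, was in 10 of the 27 (37.0%), against 37.4% of all starts. Of its 10 genes 6 rose and 4 did not pass the test, while 11 of all 31 subunit genes rose. Of those 4, Psmc2 and Psmd4 passed with the block. Whether a motif goes with a rise was not tested. The heat shock element GAANNTTC was in 1 (3.7%), Psmb5, against 7.86% of all starts. For the first 2 motifs the share among the subunit genes lay near that of all promoters. A match is a run of letters and shows no binding.

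The arrays read RNA of cultures that can hold several cell types, in which fewer cells of a type and less RNA per cell cannot be told apart. Of 25 marker genes of 5 cell types, 24 had a probe set of their own, and none of the 24 was at the floor on any array. The summed signal of the 5 precursor markers (Pdgfra, which rose, and Cspg4, Olig1, Olig2 and Sox10, which did not pass) was 10930 to 12960 at 31.5 °C and 10450 to 13240 at 37 °C. The 4 markers of differentiating oligodendrocytes summed to 8085 to 11700 and 15830 to 19110, without overlap, and all 3 tested fell. The 5 astrocyte markers summed to 4665 to 8572 and 5890 to 12240. The 5 microglia markers summed to 2226 to 4710 and 2765 to 6697 and the 5 neuron markers to 6116 to 7212 and 6568 to 8883. In each of these 3 lists 0 of 5 passed in limma. Their median log2 differences, 31.5 °C minus 37 °C, were -0.59, -0.26 and -0.30, and every marker in them except Csf1r (0.15) was below 0. The smallest limma adjusted p of each list was 0.0671 (Aldh1l1), 0.0659 (C1qb) and 0.0701 (Syt1). The part of these shifts in the proteasome result was not tested. Before scaling, the trimmed mean signal of the arrays ran from 131.5 to 248.4, lowest in replicate 4 at 37 °C.

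The subunits that rose at 31.5 °C did so by 19.3% to 32.6% in signal. They were 3 of 7 alpha ring, 1 of 7 beta ring, 1 of 6 ATPase and 6 of 11 non-ATPase genes. That split depended on the fit. With the replicate number as a block in limma, 3 alpha ring, 5 beta ring, 3 ATPase and 9 non-ATPase genes rose, against 15.0% of all genes. Over all 31 genes the change ran from -1.52% to 32.6%. Of the 31 genes, 11 rose, 0 fell and 20 did not pass the test (limma, Benjamini-Hochberg adjusted p under 0.05). Among all genes tested, 7.64% rose and 7.77% fell. Among the 1722 genes at least as bright as the dimmest subunit, 7.43% rose. The 11 were Psma2, Psma6, Psma7, Psmb3, Psmc1, Psmd1, Psmd3, Psmd11, Psmd12, Psmd13 and Psmd14. The median log2 difference, 31.5 °C minus 37 °C, was 0.28 over the 31 genes, or 21.0% higher signal, and -0.0017 over all genes tested. The 4 signals at 31.5 °C all lay above the 4 at 37 °C for 17 of the 31, against 11.7% of all genes. The difference was above 0 in each of the 4 replicate pairs for 28 of the 31, against 25.3% of all genes.

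These differences are small, and the number that passed depended on how the spread between arrays was handled. With the replicate number as a block in limma, 20 subunits rose and 0 fell, against 15.0% and 15.8% of all genes, and the 20 included all 11. The 9 added were Psmb1, Psmb2, Psmb4, Psmb6, Psmc2, Psmc6, Psmd2, Psmd4 and Psmd7. After scaling to equal medians, the median over all genes moved to 0.09 and that of the subunits to 0.36, and 1 subunit, Psmb3, passed, against 3.94% of all genes. The median SE of the subunits was 0.155 with that scaling and 0.089 as processed. With that scaling and the block together, 28 rose, against 22.5% of all genes. With quantile normalization 13 rose, against 8.21% of all genes. Leaving out replicate 1, 2 or 3 at 31.5 °C left 2 calls each, against 4.1%, 4.03% and 3.71% of all genes. Leaving out replicate 4 there gave 18, against 6.89%. Without replicate 1 or 2 at 37 °C 5 subunits passed, against 5.24% and 4.23% of all genes. Without replicate 3 or 4 there 6 did, against 6.12% and 5.21%.

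**Figure D1:**
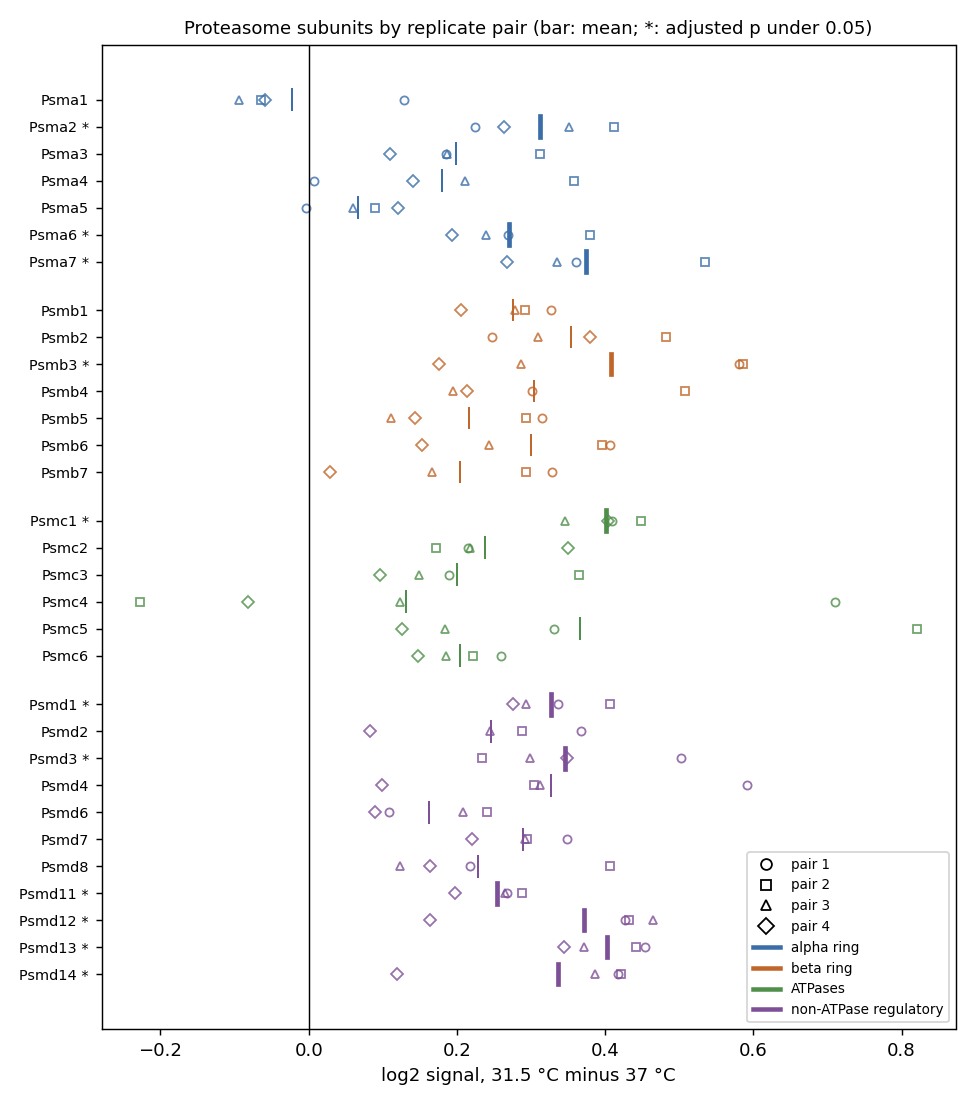
Log2 signal at 31.5 °C minus 37 °C (horizontal axis) for each of the 31 subunit genes (rows, coloured by subcomplex). Open symbols are the 4 replicate pairs and the vertical bar is their mean, thick and starred where limma's adjusted p was under 0.05. In 28 of the 31 rows all 4 symbols lie right of 0; Psma1, Psma5 and Psmc4 are the exceptions.

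In the alpha ring 3 of 7 genes rose and 4 did not pass, while 7.64% of all genes rose. The median difference was 0.20. Psma2 had signals of 3887, 4202, 4144 and 3862 in replicates 1 to 4 at 31.5 °C, and of 3325, 3159, 3248 and 3218 at 37 °C. All 4 cold arrays lay above all 4 warm ones, and the gene rose by 24.2% (log2 difference 0.31 ± 0.07 SE, limma adjusted p = 0.0216, up to 0.105 over the alternatives). For Psma7 the cold arrays read 2840, 2836, 2690 and 2363 and the warm arrays 2212, 1958, 2132 and 1963. Replicate 4 was the lowest cold array, still above every warm one, and the rise was 29.6% (0.37 ± 0.09, limma adjusted p = 0.0265, up to 0.109). Psma6 went from 3632 ± 36.3 (SD, n = 4) at 37 °C to 4385 ± 241 at 31.5 °C, a rise of 20.6% (limma adjusted p = 0.0375, up to 0.151). That is probe set 1437144_x_at; another of the gene, 1416506_at, gave a difference of 0.29.

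Psma1 had the smallest difference of its ring, with no test of that order. Its signals were 2140, 2047, 1970 and 2002 at 31.5 °C and 1957, 2140, 2103 and 2085 at 37 °C, so the groups overlapped fully. The log2 difference was -0.02 (95% interval -0.18 to 0.14, limma adjusted p = 0.870), above 0 in pair 1 and below 0 in the other 3 pairs, and 0.07 with median scaling. That interval overlaps those of Psma4 (-0.04 to 0.40) and Psma5. Psma5 had the next smallest difference, 0.07 (95% interval -0.10 to 0.23), from 3594 ± 115 to 3764 ± 150.5. Psma3 did not pass (0.20, limma adjusted p = 0.0933), although its lowest cold array, 4490, lay above its highest warm array, 4240. Psma4 was 2865 ± 233 against 2533 ± 258, with groups that overlapped.

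In the beta ring 1 of 7 genes rose and 6 did not pass, while 7.64% of all genes rose. All 7 were higher in 4 of 4 pairs, against 25.3% of all genes. Psmb3, a non-catalytic subunit of the ring, read 2941, 3113, 2761 and 2803 at 31.5 °C and 1967, 2073, 2263 and 2481 at 37 °C. The groups did not overlap, and the rise of 32.6% was the largest among the 31 genes, with no test of that order (0.41 ± 0.09, limma adjusted p = 0.0232, up to 0.0777). Psmd13 (0.403) and Psmc1 (0.402) lie within that error. The other probe set of Psmb3, 1417052_at, gave 0.496 (limma adjusted p = 0.0103 over all probe sets, against 6.46% of all probe sets higher).

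The 3 catalytic beta genes did not pass the test. Psmb5, the chymotrypsin-like site, read 3384, 3315, 3094 and 2525 in the cold and 2720, 2705, 2865 and 2285 in the warm cultures. Replicate 4 was the lowest array at each temperature, and the groups overlapped (0.22 ± 0.12, limma adjusted p = 0.248, and 0.0574 with the replicate block). Psmb6, the caspase-like site, went from 2805 ± 117 to 3462 ± 320 without overlap (0.30 ± 0.09, limma adjusted p = 0.0532, and 0.0255 with the block). Psmb7, the trypsin-like site, went from 5409 ± 236 to 6249 ± 554 with overlap (0.20 ± 0.09, limma adjusted p = 0.153, and 0.0847 with the block).

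Psmb2, another non-catalytic beta subunit, shows what the pairing of arrays does to the error. Its signals were 2204, 2654, 2394 and 1417 at 31.5 °C and 1857, 1900, 1932 and 1090 at 37 °C. Replicate 4 was low at both temperatures, so the groups overlapped while each pair differed by 0.25 to 0.48. The SE of its difference of 0.35 was 0.24 without the block and 0.07 with it, and limma's adjusted p was 0.356 and 0.0128. Without replicate 4 at 37 °C alone the difference was 0.155 (limma adjusted p = 0.667). Psmb1 had 0.28 (limma adjusted p = 0.126, and 0.020 with the block). Psmb4 had 0.30 (limma adjusted p = 0.107, and 0.0291 with the block). A further bright probe set of Psmb4, 1438984_x_at, averaged 2248 in the cold and 2154 in the warm cultures. Its difference was only 0.05, with pairs from -0.34 to 0.29. That probe set passed in neither fit (limma adjusted p = 0.818 over all probe sets, and 0.764 with the block).

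**Figure D2:**
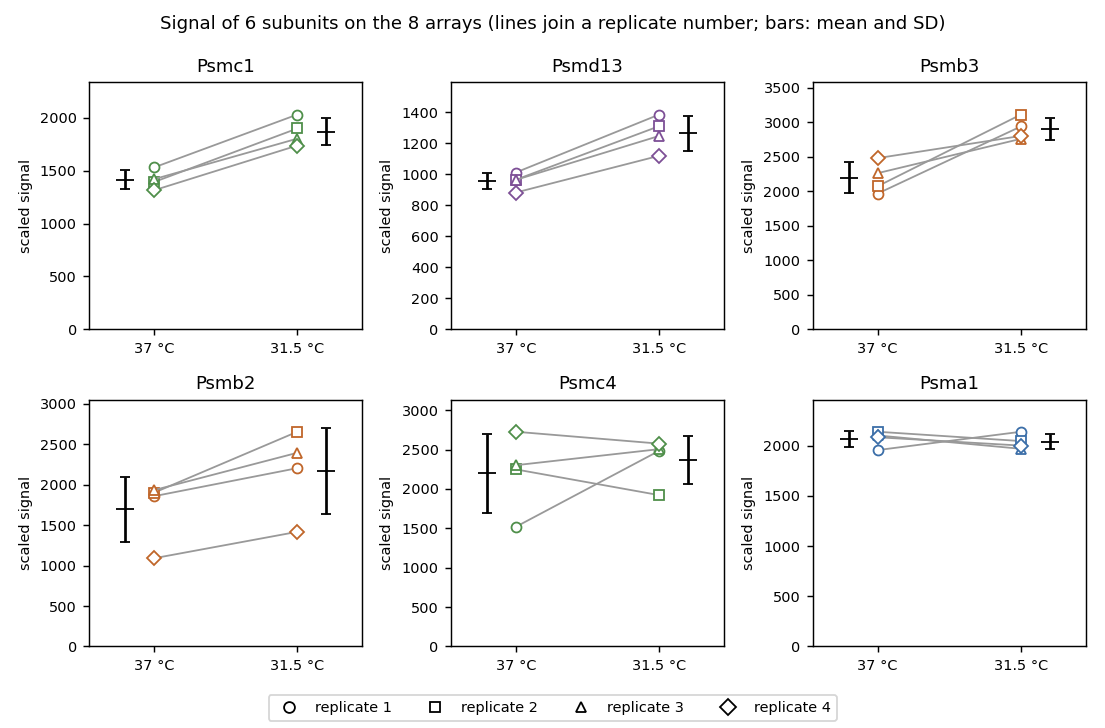
Scaled signal (vertical axis, from 0) of 6 subunit genes on the 8 arrays, with 37 °C at the left and 31.5 °C at the right of each panel. Symbols are replicates, grey lines join a replicate number, and black bars give mean and SD (n = 4). The groups are apart for Psmc1, Psmd13 and Psmb3. They overlap for Psmb2, where replicate 4 is low at both temperatures, for Psmc4, where replicate 1 at 37 °C reads 1519, and for Psma1.

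Of the 6 ATPase genes, 1 rose and 5 did not pass, while 7.64% of all genes rose. Their median difference was 0.22. Psmc1 had the smallest adjusted p of the 31 genes. It read 2032, 1900, 1804 and 1739 at 31.5 °C and 1531, 1393, 1420 and 1315 at 37 °C. The groups did not overlap and the 4 pairs gave 0.41, 0.45, 0.35 and 0.40, a rise of 32.1% (0.40 ± 0.08, limma adjusted p = 0.0168, up to 0.102). It passed in 25 of 27 alternatives. With the mean of its probe sets, of which the other is below the filter, its difference was 0.20 and it did not pass.

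Psmc4 and Psmc5 were the least even of the ATPases. Psmc4 read 2485, 1922, 2506 and 2576 in the cold and 1519, 2249, 2302 and 2727 in the warm cultures, with pairs from -0.23 to 0.71 and a 95% interval of -0.27 to 0.54 around 0.13. Without replicate 1 at 37 °C the value was -0.04. Its second probe set, 1416291_at, gave 0.21 (limma adjusted p = 0.169 over all probe sets). Psmc5 read 2111, 2761, 2109 and 1827 in the cold and 1677, 1564, 1856 and 1673 in the warm cultures. Replicate 2 was the highest cold array and gave a pair difference of 0.82, and the gene did not pass (0.37 ± 0.13, limma adjusted p = 0.0869). Psmc2 (0.24) and Psmc6 (0.20) did not overlap between temperatures and did not pass, but did with the block (limma adjusted p = 0.0358 and 0.0478). Psmc3 (0.20) overlapped and passed in neither of these fits.

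Of the non-ATPase genes of the regulatory particle, 6 of 11 rose and 5 did not pass, while 7.64% of all genes rose. For 8 the groups did not overlap, and all 11 were higher in 4 of 4 pairs, against 11.7% and 25.3% of all genes. The count of calls was 0 without replicate 1 at 31.5 °C, 1 without replicate 2 or without replicate 3 there, and 9 without replicate 4. The shares of all genes in these fits were 4.1%, 4.03%, 3.71% and 6.89%. At 37 °C the count was 2 without replicate 1, 4 without replicate 2, 2 without replicate 3 and 3 without replicate 4. The shares of all genes there were 5.24%, 4.23%, 6.12% and 5.21%. With median scaling the count was 0, against 3.94% of all genes. The median difference was 0.33. In the base, which carries the ATPases, Psmd1, a large scaffold subunit, read 2591, 2579, 2583 and 2438 at 31.5 °C and 2053, 1946, 2108 and 2014 at 37 °C. The arrays of each group were close together, the groups were apart, and the rise was 25.5% (0.33 ± 0.07, limma adjusted p = 0.0176, up to 0.097). Psmd2, the other large scaffold, had 0.25 and limma adjusted p = 0.0587, and 0.0450 with the block. Psmd4, a ubiquitin receptor, had 0.33 and limma adjusted p = 0.0609, and 0.0395 with the block.

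In the lid 5 of 8 genes rose, against 7.64% of all genes. Psmd13 read 1385, 1310, 1247 and 1119 in the cold and 1011, 964, 964 and 882 in the warm cultures, a rise of 32.2% without overlap (0.40 ± 0.09, limma adjusted p = 0.0211, and 0.547 when all its probe sets are averaged). Replicate 4 was the lowest array in each group. Psmd14, the enzyme that cuts the ubiquitin chain from the substrate, read 3880, 3985, 3813 and 3358 against 2906, 2976, 2916 and 3091, a rise of 26.2% (0.34 ± 0.08, limma adjusted p = 0.0264, up to 0.103). Its pair 4 gave 0.12, the smallest of its 4 differences. Psmd12 rose from 1215 ± 56.9 to 1576 ± 143 (limma adjusted p = 0.0264, up to 0.0839). Psmd3 rose from 1107 ± 77.8 to 1406 ± 78.8 (adjusted p = 0.0269 in limma, up to 0.0993). Psmd11, a lid subunit that joins lid and base, rose from 3257 ± 55.4 to 3887 ± 138 (adjusted p = 0.0383 in limma, and 0.623 when all its probe sets are averaged). Of the lid genes that did not pass, Psmd6 had the smallest difference, 0.16, Psmd7 had 0.29 and Psmd8 0.23; Psmd7 passed with the block (adjusted p = 0.0175 in limma).

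The 4 subcomplexes were compared by their medians within each pair, as a description without a test. The alpha ring gave 0.19, 0.36, 0.21 and 0.14 in pairs 1 to 4. The beta ring gave 0.33, 0.40, 0.24 and 0.18. The ATPases gave 0.30, 0.29, 0.18 and 0.14. The non-ATPase genes gave 0.37, 0.30, 0.29 and 0.16. Every one of these medians was above 0, while those of all genes lay between -0.02 and 0.01. The beta ring was above the alpha ring in 4 of 4 pairs, by 0.06 ± 0.05 (SD over pairs). The ATPases minus the beta ring was -0.06 ± 0.03, with the beta ring above in each pair. The non-ATPase genes were above the ATPases in 4 of 4 pairs, by 0.05 ± 0.04. The other 3 combinations changed order between pairs. Pair 4 had the lowest median in each of the 4, and its array at 37 °C was the dimmest of the 8 and was scaled up by 1.60; its part in the result was not tested.

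**Figure D3:**
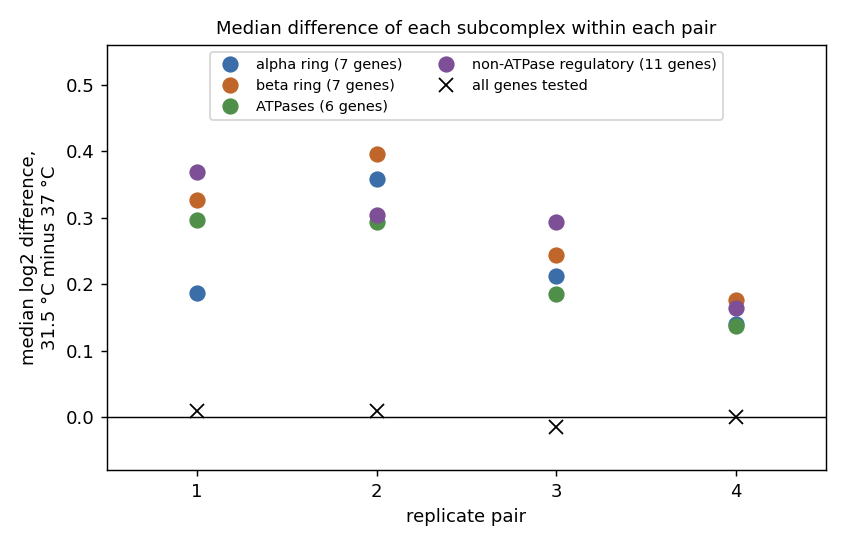
Median log2 difference, 31.5 °C minus 37 °C (vertical axis), of each subcomplex within replicate pairs 1 to 4 (horizontal axis), with all 11525 genes tested as crosses. The subcomplexes lie between 0.14 and 0.40 and the crosses at or near 0; pair 4 is lowest for each subcomplex.

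The 31 genes had 67 probe sets, of which 53 were past the filter on dim values, and 13 genes had a single one. Tested singly, 13 of the 53 rose and 0 fell, against 6.46% and 6.76% of all 22519 probe sets. The difference was above 0 for 47 and below 0 for 6. Of the 6, Psma1 holds 2 (1415695_at and the dim 1458292_at, at -0.38) and Psmb1 holds 2 dim ones (1420053_at at -0.30 and 1420052_x_at at -0.05). The others are the dim 1441707_at of Psma3 (-0.41) and 1456059_at of Psmd11 (-0.22), which read 692 ± 105 at 37 °C and 597 ± 94.7 at 31.5 °C while 3 brighter probe sets of that gene gave 0.25, 0.34 and 0.35. None of the 6 passed, but with the block 1458292_at (limma adjusted p = 0.041) and 1441707_at (0.0185) were lower at 31.5 °C. Below the filter, 1445729_at of Psmd13 read 29.7 ± 2.02 in the cold and 40.7 ± 2.26 in the warm cultures, without overlap (-0.46, limma adjusted p = 0.0124 with no filter), against the direction of that gene's brighter probe sets. One probe set moved with the replicate number far more than with temperature: 1423696_a_at of Psmd6 read 2176, 1781, 492 and 1033 in the cold and 1991, 1854, 370.5 and 874 in the warm cultures, low in replicate 3 at both. The chosen probe set of Psmd6, 1423697_at, read 2878 to 3568 in the cold and 2704 to 3020 in the warm cultures.

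**Figure D4:**
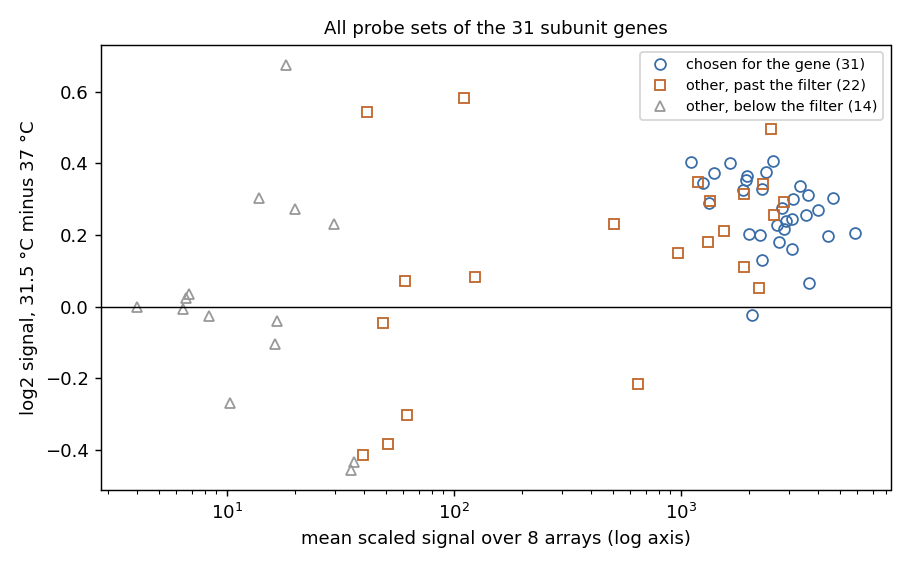
Log2 difference, 31.5 °C minus 37 °C (vertical axis), against the mean scaled signal over 8 arrays (horizontal log axis) for all 67 probe sets of the 31 genes. Circles are the 31 probe sets chosen for a gene, squares the 22 others past the filter and triangles the 14 below it. The chosen probe sets gather between -0.02 and 0.41, and the dim ones scatter to both sides of 0.

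Of 44 further genes of the pathway, 33 were tested: 7 rose, 0 fell and 26 did not pass, a share of calls read against the same 7.64% and 7.77%. Their median difference was 0.15, with 23 above 0. With the block 10 rose and 2 fell, against 15.0% and 15.8% of all genes. With median scaling 3 rose, against 3.94% of all genes. Another 2 (Psma8 and Psmb11) were below the filter, 1 shares its probe set with another gene, and 8 were not analysed here. These counts use the chosen probe set of each gene, and others can differ. For Txnl1, chosen at 0.15, 1435235_at fell (-0.55, limma adjusted p = 0.00742 over all probe sets). For Rad23b, chosen at 0.07, 1455420_at rose (0.51, limma adjusted p = 0.0137 over all probe sets). For Zfand5, chosen at -0.11, the bright 1416085_s_at gave 0.21 with pairs from 0.16 to 0.26. It did not pass (limma adjusted p = 0.105 over all probe sets).

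Among activators and inhibitors of the core, 2 of 4 tested rose, against 7.64% of all genes. Psme4, an activator that opens the barrel without ubiquitin or ATP, read 1239, 1271, 1276 and 1401 at 31.5 °C and 945, 838, 840 and 895 at 37 °C. The groups were far apart, and the rise was 1.47-fold (0.56 ± 0.08, limma adjusted p = 0.00436, up to 0.188). Ecpas (0.56) and Psmd9 (0.54) lie within that error. Its 2 other probe sets past the filter gave 0.56 and 0.52. Psmf1, a regulator first described as an inhibitor of the core, read 440, 511, 445 and 464 against 394, 288, 348 and 344, a rise of 0.44 ± 0.11 (limma adjusted p = 0.0276, up to 0.0801). Of its other probe sets past the filter 2 gave 0.65 and 0.63 and the dim 1424371_at -0.62 (limma adjusted p = 0.0585 over all probe sets). Psme3, a nuclear activator, was at 504 ± 61.8 against 409 ± 59.9 with overlap (0.31, limma adjusted p = 0.134, and 0.0185 with the block). Its other probe set past the filter, 1418079_at, was at 435 ± 11.3 and 434 ± 18.7 (0.0053, limma adjusted p = 0.975 over all probe sets, and 0.966 with the block).

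The immune forms of the catalytic subunits, which interferon induces, gave 0 rises among 3 tested, against 7.64% of all genes. Psmb8 was at 78.0 ± 9.04 and 80.2 ± 17.4 (-0.02, 95% interval -0.38 to 0.34, limma adjusted p = 0.950), a sign that turns with quantile or median scaling. Psmb9 was at 62.9 ± 10.9 and 57.4 ± 13.1 (0.14, limma adjusted p = 0.645). Psmb10 was at 390 ± 40.8 and 326 ± 33.0 (0.26, limma adjusted p = 0.139, and 0.0421 with the block).

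Among 8 assembly chaperones 1 rose, against 7.64% of all genes. It was Psmd9, which helps build the ATPase ring. It read 463, 559, 509 and 464 in the cold and 326, 347, 355 and 340 in the warm cultures, without overlap (0.54 ± 0.09, limma adjusted p = 0.00645, up to 0.347). Psmg3, which helps build the alpha ring, went the other way: it read 346, 376, 323 and 318 against 437, 409, 387 and 427. Its groups did not overlap either, but it did not pass (-0.29 ± 0.09, limma adjusted p = 0.0524, and 0.0303 with the block). Psmg4, its partner, was at 488 ± 44.2 against 377 ± 78.7 (0.39, limma adjusted p = 0.107).

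Proteins bound to the regulatory particle gave 3 rises among 6 tested, against 7.64% of all genes. Ecpas, a large adaptor of the assembled particle, read 430, 397, 405 and 412 in the cold and 230, 286, 287 and 323 in the warm cultures (0.56 ± 0.11, limma adjusted p = 0.0123, up to 0.336). Uchl5, a deubiquitinating enzyme, rose from 503 ± 44.6 to 654 ± 27.8 (0.38, limma adjusted p = 0.0224, up to 0.324). Ube3c, a ubiquitin ligase that extends chains on the proteasome, rose from 410 ± 9.83 to 485 ± 15.1 (0.24, limma adjusted p = 0.0449, up to 0.739). For these 3 and for Psmd9 and Psme4, the highest p came with the least favourable probe set or the mean of probe sets.

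Of 9 tested genes that deliver substrates 1 rose, against 7.64% of all genes. It was Nploc4, a cofactor of the unfolding ATPase Vcp. It read 586, 505, 535 and 502 in the cold and 333, 435, 402 and 326 in the warm cultures, without overlap (0.52 ± 0.11, limma adjusted p = 0.0197, up to 0.0599). Vcp itself was at 5289 ± 287 and 4789 ± 132 (0.14, limma adjusted p = 0.230). Ubqln1, a shuttle factor, was at 2249 ± 109 and 2616 ± 153 without overlap (-0.22, limma adjusted p = 0.0963, and 0.0471 with the block); without the _s_at probe sets its value was 0.03.

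The 3 known regulators of the subunit genes that were tested did not pass, while 7.64% of all genes rose and 7.77% fell. Nfe2l1 read 550, 477, 593 and 493 in the cold and 626, 489, 594 and 530 in the warm cultures, so the groups overlapped (-0.08, 95% interval -0.33 to 0.17, limma adjusted p = 0.655; 0.0064 with median scaling). Nfe2l2, the antioxidant response factor, read 1070, 963, 1149 and 863 against 1157, 1032, 1382 and 953 (-0.16, 95% interval -0.46 to 0.15, limma adjusted p = 0.486). A second, dim probe set of Nfe2l2, 1457117_at, read 24.8 to 41.6 in the cold and 1.22 to 6.61 in the warm cultures, at the floor of 9.80 in all 4 of the latter, and turns the gene's mean over probe sets to 0.77 (limma adjusted p = 0.00344). Ngly1, an enzyme that processes the Nfe2l1 protein, was at 524 ± 66.8 and 455 ± 36.4 (0.20, limma adjusted p = 0.269). Transcript signals say nothing of how much of these factors was active.

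**Figure D5:**
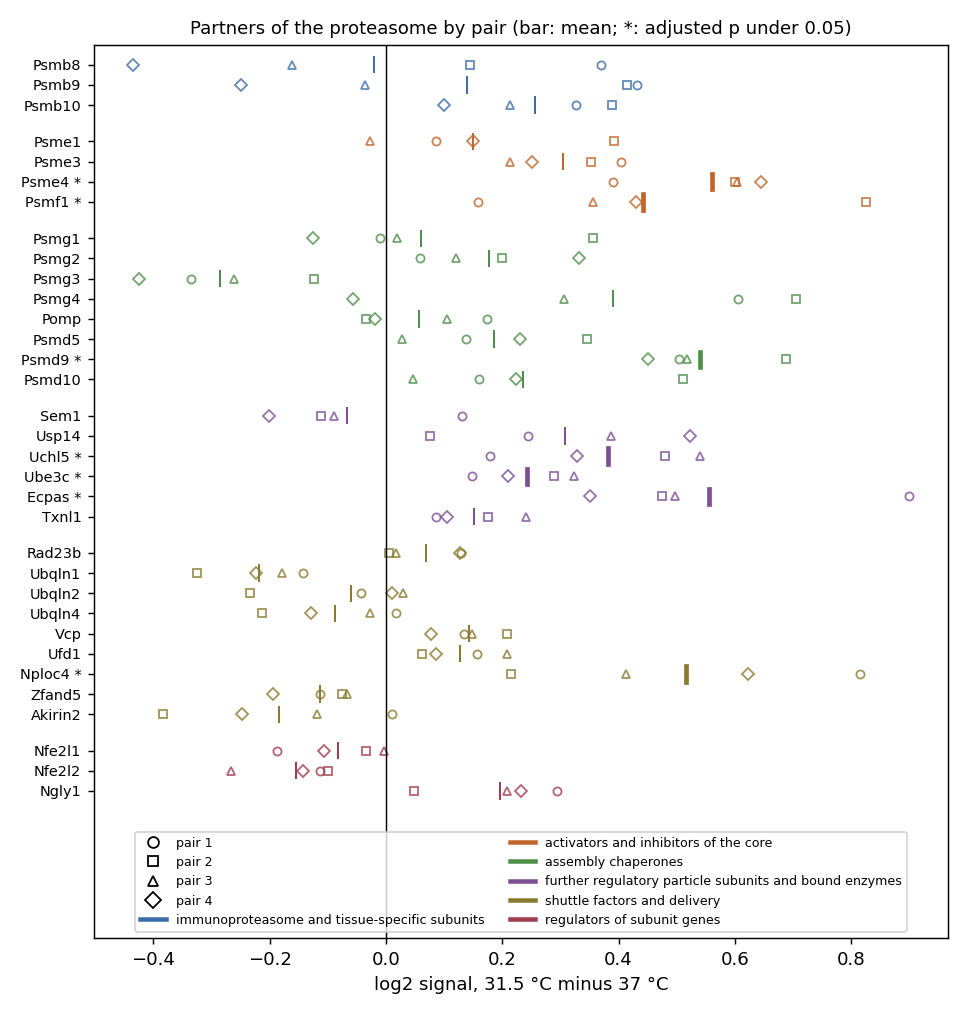
Log2 signal at 31.5 °C minus 37 °C (horizontal axis) for the 33 tested partner genes of the proteasome, grouped by role (colours). Open symbols are the 4 replicate pairs and the vertical bar their mean, thick and starred where limma's adjusted p was under 0.05. Psme4, Psmd9 and Ecpas lie farthest right among the starred rows. With the chosen probe set of each gene, Psmg3, Ubqln1, Zfand5, Nfe2l1 and Nfe2l2 lie left of 0 in all 4 pairs.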

How the data were processed

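Each of 8 arrays (4 per temperature) gave a signal for 45101 probe sets. The deposited intensity values are linear MAS5 signals of the authors, named so in the submitters' processing notes; version and scaling target are not given in the sources used here. Trimmed means (2%) of the arrays ran from 131.5 to 248.4. From these values, 64 controls were left out, arrays were scaled to a common trimmed mean (factors 0.848 to 1.60), values were raised to the 25th percentile (9.80) and log2 was taken. Each gene was represented by its brightest probe set with 1 symbol; 11525 genes at or above the median (a signal of 36.3) were tested with limma 3.58.1 in R 4.3.3, two-sided, Benjamini-Hochberg over all of them. Means ± SD are of scaled signals; differences are log2 ± SE. Replicate numbers were taken to pair the arrays. Deviations from group means correlated at 0.422 to 0.614 within a number and at most 0.057 between numbers over all genes. Deviations within a group sum to 0, so a positive value within a number lowers those between numbers, which are no separate evidence of pairing. Over the 31 subunits alone the ranges meet (0.075 to 0.809 within, up to 0.527 between). "Up to" gives the highest adjusted p over 27 alternatives. The fit without the block was tested on simulated data with noise independent between arrays. That simulation holds no correlation within a replicate number, and its recovery of differences as small as those of the subunits is not given here. The members and lists were chosen with earlier results of these data known. Partners past the threshold, and up to 3 of smallest p per list, are named. The number of arrays limits the precision. Figures used matplotlib 3.10.9.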

Additional observations from a re-analysis of the deposited data

Results flagged for a closer look

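In 98 groups of 4 arrays examined for a value far from the other 3, 7 were singled out; chance gives about 1 in 20. In 5 of these, replicate 4 was the lowest: Psmb2 at 37 °C (1090, next 1857), Psmb7 at 31.5 °C (5421, next 6467), Psmc6 at 31.5 °C (1985, next 2184), Psmd6 at 37 °C (2704, next 2978) and Psmd1 at 31.5 °C (2438, next 2579). The other 2 are Psmb7 in replicate 3 at 37 °C (highest at 5760, next 5323) and Psmc4 in replicate 2 at 31.5 °C (lowest at 1922, next 2485).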

How the results depend on the processing

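The choices below moved counts more than directions. Of 837 values (31 subunits under 27 alternatives), 12 changed sign, and of the others 86 lost and 74 gained a call. The subunit count was 1 with median scaling, against 3.94% of all genes. It was 19 with an intensity trend and 20 with the replicate block, against 8.62% and 15.0%. In fits added after the data were seen, it was 28 with median scaling and the block, against 22.5%. There it was 21 with quantile normalization and the block, against 15.5%. With arrays or pairs left out it was 2 to 18, against 3.71% to 9.79%. These shares of all genes also stand beside the subcomplex and partner counts below. The others were 8.21% with quantile normalization, 10.8% with the stricter filter, 9.14% with array weights and 4.44% with no filter. They were 5.91% with the mean of probe sets and 6.46% of probe sets taken singly. With median scaling, with or without the block, medians were 0.36 for the subunits, 0.31 for the ATPases, 0.42 for the non-ATPase genes and 0.24 for the partners; the non-ATPase median was 0.23 with the mean of probe sets, and that of the partners 0.060 with each gene's smallest probe set. Calls by subcomplex were, for the alpha ring, 0 with median scaling, 5 with it and the block, 1 with the smallest probe set and 0 to 3 with arrays left out; for the beta ring, 2 with quantile normalization, the stricter filter, the trend or array weights, 5 with the block, 6 or 7 with it and quantile or median scaling and 0 to 4 with arrays left out; for the ATPases, 0 with median scaling or the mean of probe sets, 3 with no filter, the trend or the block, 5 or 2 with the block and median or quantile scaling and 1 to 2 with arrays left out; for the non-ATPase genes, 0 with median scaling, 10 with the trend, 11 with median scaling and the block and 0 to 9 with arrays left out. Partners that rose numbered 3 with median scaling, the mean or the smallest probe set, 17 with median scaling and the block and 3 to 7 with arrays left out; those that fell numbered 1 with no filter, the stricter filter or the smallest probe set, 2 with the trend, the block or quantile normalization with the block and 0 to 1 with arrays left out. Signs turned for Psma1 (0.067 with median scaling, 0.076 with the mean of probe sets, 0.00200 without pair 3, with the block), Psmc4 (-0.0366 without replicate 1 at 37 °C, -0.062 without pair 1), with the mean of probe sets for Psma3 (-0.11), Psma5 (-0.031), Psmb1 (-0.0246) and Nfe2l2 (0.77), with the smallest probe set for Psma3 (-0.41), Psmb1 (-0.30), Psmd11 (-0.22) and Psmf1 (-0.62), for Ubqln1 (0.028 with its largest probe set or without _s_at), Nfe2l1 (0.0064 with median scaling) and Psmb8 (0.012 with quantile, 0.069 with median scaling, 0.047 with array weights, -0.13 to 0.090 with 1 array left out, where 0.050 and 0.047 also occur, and 0.027 and 0.12 without pair 3 or 4). Apart from the probe set choices, the causes were not tested.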
